A study of Saccharomyces cerevisiae with 4 samples.

Results

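The genes for making and breaking down trehalose and glycogen, the storage sugars of budding yeast, were followed from standard to low phosphate. They are 10 genes, taken by platform symbol as the trehalose synthase complex (TPS1, TPS2, TPS3, TSL1), a trehalase (NTH1), the glycogen synthases (GSY1, GSY2), the branching enzyme (GLC3), the glycogen phosphorylase (GPH1) and the debranching enzyme (GDB1). Each had 1 probe, so they were 10 of 6388 gene probes. Trehalose is a glucose disaccharide and glycogen a branched glucose polymer. Yeast stores both when nutrients run short and breaks them down when growth resumes. Both are built from UDP-glucose, and the kinase Pho85, which also switches the yeast phosphate response, is known to inactivate glycogen synthase by phosphorylation.

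The data were 4 spotted arrays with a pair of colours each, 2 for each phosphate level. All samples came from the alpha-mating haploid strain BY4742 of Saccharomyces cerevisiae, otherwise wild type here, carrying the plasmid YCpLac111. The medium was synthetic complete with glucose and held 10 mM phosphate (standard phosphate) or 75 uM (low phosphate), and the methods give a pair of doublings in low phosphate before harvest. Every sample was hybridised against a common reference, RNA of wild-type BY4742 from a single culture with no treatment and no plasmid named. The letter of an array stands for its dyes: an a array had the sample in Cy3 and the reference in Cy5, a b array the reverse. Culture and dye thus cannot be told apart within a group. A design text gives the dye order the other way round from the labels of the single arrays. The labels were used, and the deposited ratios, set against the scanner signals, ran as sample over reference under them. The submitters write of independent cultures for the replicate arrays, while the methods of the study write of biological replicates repeated with exchanged dyes, and the array titles carry 1 number per condition before the letter. If the arrays of a group share a culture, every p-value here measures technical spread only.

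All 10 genes were above background in both channels on all 4 arrays, and none of their spots was near saturation. Both spots of a gene lay within 0.18 log2 units of each other on each array. The median sample signal over gene probes was 254 to 383 intensity units per array and the median reference signal 131 to 703. Low phosphate b stood apart, with an SD of the log2 ratios over all probes of 0.599 against 0.197 to 0.270 on the other arrays. The strain label was checked against mating-type genes. The 4 alpha-specific genes had sample signals of 35.2 to 391 times background, and the 6 a-specific genes 1.17 to 3.27 times, although 5 of these 6 still passed as above background on all arrays. Passing the cutoff thus does not by itself show expression. In the reference channel of standard phosphate b, the spots of 4 of the 10 genes also lay in that low range. These were GSY1 (1.64 and 1.93 times background), GPH1 (2.21 and 2.23), NTH1 (2.50 and 2.55) and GDB1 (2.72 and 2.59). RNA came from whole cultures, so a change in the share of cells that express a gene and a change in its RNA per cell cannot be told apart.

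In low phosphate all 10 genes had a higher mean than in standard phosphate, and for all 10 both low phosphate arrays lay above both standard arrays. Over all probes, 26.5% had groups that stood apart in this way. The differences ran from 0.76 log2 units (1.69-fold) for TPS3 to 1.94 (3.83-fold) for TSL1, with a median of 1.52 (2.87-fold). The median over all probes was 0.0001, but normalizing each array on its gene spots fixes that median near no difference. The largest differences after TSL1 were those of GPH1 and GSY1. Over 1.7-fold, the threshold the study uses, were 9 of the 10 genes and 3.49% of all probes. GSY1, TSL1, TPS2 and GSY2 also had an unadjusted p under 0.05 in limma, so 4 of the 10 genes were called higher at the study's thresholds. Of all probes 1.60% were called higher and 1.47% lower. With the dye orientation as a replicate block 8 of the 10 were called, adding TPS1, NTH1, GPH1 and GDB1, beside 2.65% of all probes, and with a trended, robust prior none was, beside 1.16%. With Benjamini-Hochberg adjustment over the 6388 probes none of the 10 genes passed 0.05, as the adjusted p (limma) was 0.420 to 0.435, and 0.0157% of all probes (1 probe) passed. At an unadjusted limma p under 0.05 without a fold threshold the count was also 4, beside 733 of the 6388 probes in either direction.

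**Figure D1:**
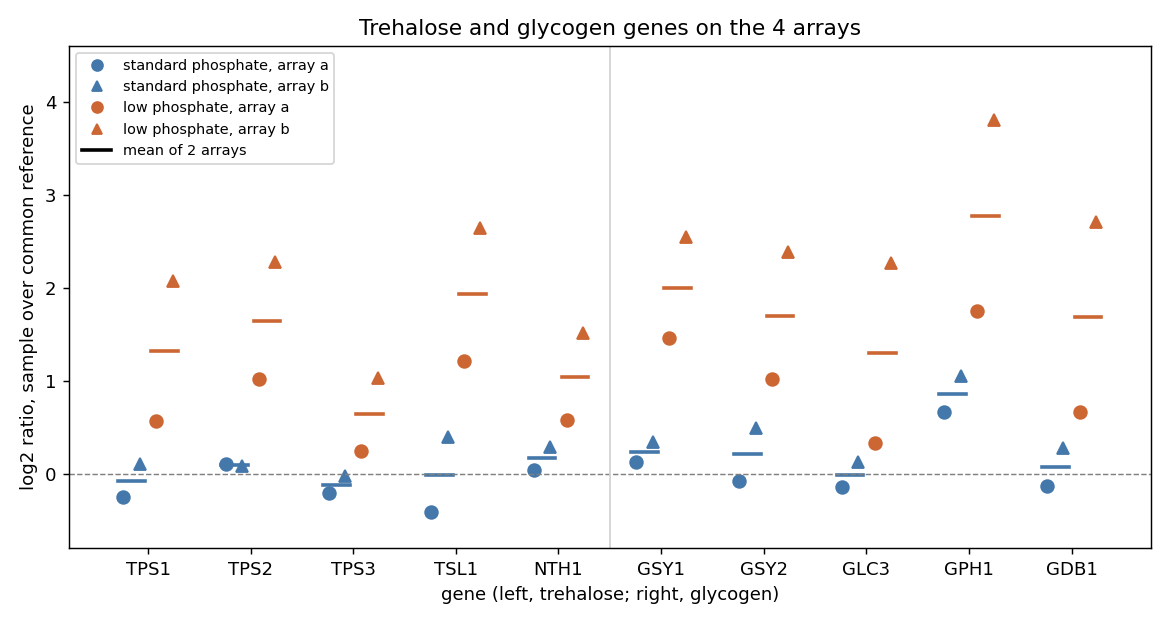
Log2 ratio of sample over common reference (vertical axis) for each of the 10 genes (horizontal axis), with circles for a arrays, triangles for b arrays, blue for standard and orange for low phosphate, and bars at the mean of 2 arrays. For each gene both orange symbols lie above both blue ones, low phosphate b is the highest array, and GPH1 has the highest ratio of the 10 genes on every array.

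Of the trehalose synthase complex, TPS1 encodes the synthase that joins UDP-glucose and glucose 6-phosphate to trehalose 6-phosphate. Its log2 ratio to the reference was -0.25 and 0.11 on standard phosphate a and b, and 0.57 and 2.08 on low phosphate a and b. Low phosphate was higher by 1.40 log2 units (SE 0.55, 2.63-fold), with an unadjusted limma p of 0.066 and an adjusted p of 0.420. The low arrays lay above the standard arrays but were 1.50 apart from each other, a gap wider than the mean difference. TPS2 encodes the phosphatase that turns trehalose 6-phosphate into trehalose. It gave 0.11 and 0.088 on standard phosphate a and b, and 1.02 and 2.27 on low phosphate a and b. Its standard arrays were the closest pair of any of the 10 genes, 0.020 apart, and it rose by 1.55 (SE 0.45, 2.93-fold) at an unadjusted limma p of 0.027.

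TSL1 and TPS3 encode the large regulatory subunits of the complex. TSL1 gave log2 ratios of -0.41 and 0.39 on standard phosphate a and b, and 1.21 and 2.64 on low phosphate a and b. Its standard arrays lay on either side of the reference and were the widest apart of the 10 genes. It rose by 1.94 (SE 0.59, 95% interval 0.30 to 3.57), at an unadjusted limma p of 0.030. TPS3 gave -0.21 and -0.023 on the standard arrays and 0.25 and 1.03 on the low phosphate arrays. Its 4 arrays did not overlap between groups, yet its difference of 0.76 (SE 0.30, 1.69-fold) was the smallest of the 10 genes and just under 1.7-fold. With print-tip loess the difference was 0.87, over 1.7-fold, and no longer the smallest.

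NTH1 encodes the main neutral trehalase, which splits trehalose into glucose. Its log2 ratio was 0.045 and 0.29 on standard phosphate a and b, and 0.58 and 1.51 on low phosphate a and b. The groups did not overlap, and the difference was 0.87 (SE 0.35, 1.83-fold), with an unadjusted limma p of 0.069. The gene for the enzyme that breaks trehalose down thus had a higher mean beside the genes that make it. The synthase complex genes had a median difference of 1.47.

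Glycogen synthase exists as a pair of isoforms, of which Gsy2 is the major one. GSY1 gave log2 ratios of 0.13 and 0.34 on standard phosphate a and b, and 1.46 and 2.54 on low phosphate a and b. It rose by 1.77 (SE 0.40, 3.40-fold, 95% interval 0.65 to 2.88), and its unadjusted limma p of 0.012 was the lowest of the 10 genes, beside an adjusted p of 0.420. The lower of its low phosphate arrays lay 1.12 above the higher of its standard arrays, the widest such gap of the 10 genes. On the standard phosphate arrays it was also the dimmest of the 10 genes. Its spots on standard phosphate b were at 2.57 and 3.36 times background in the sample channel, and 1.64 and 1.93 times in the reference channel. GSY2 gave -0.074 and 0.49 on the standard arrays, and 1.01 and 2.38 on those of low phosphate. It rose by 1.49 (SE 0.53, 2.81-fold) at an unadjusted limma p of 0.049, close to the threshold.

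GLC3 encodes the branching enzyme, which adds the side chains of glycogen. It gave log2 ratios of -0.15 and 0.13 on standard phosphate a and b, and 0.33 and 2.27 on low phosphate a and b. The groups were only 0.20 apart at their nearest, and low phosphate a and b differed by 1.93. Its difference of 1.31 (SE 0.70, 2.47-fold) had the highest unadjusted limma p of the 10 genes, 0.135.

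GPH1 encodes glycogen phosphorylase, which releases glucose 1-phosphate from glycogen chains and uses inorganic phosphate to do so. It was the one gene of the 10 with ratios well above the reference also in standard phosphate, at 0.67 and 1.06 on arrays a and b. Its reference spots on standard phosphate b were dim, at 2.21 and 2.23 times background. Low phosphate a and b gave 1.75 and 3.81. The groups did not overlap, and the difference was 1.91 (SE 0.75, 3.77-fold) with an unadjusted limma p of 0.063. GDB1 encodes the debranching enzyme that removes the branches phosphorylase leaves. Its ratios were -0.13 and 0.27 on the standard arrays and 0.67 and 2.71 on those of low phosphate, a difference of 1.62 (SE 0.74, 3.07-fold) with an unadjusted limma p of 0.095. The low phosphate arrays of both breakdown genes lay far apart, by 2.06 for GPH1 and 2.04 for GDB1, as did those of GLC3, while the gap was 1.09 for GSY1 and 1.37 for GSY2.

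The order of the 10 differences was TSL1, GPH1, GSY1, GDB1, TPS2, GSY2, TPS1, GLC3, NTH1 and TPS3. Neighbours in this order differed by 0.024 to 0.43 log2 units, and each gap was smaller than the spread between the array pairs a and b, except that between NTH1 and TPS3. There NTH1 was higher than TPS3 by 0.12, against a pooled SD of 0.083. This step depended on the processing. With print-tip loess TPS3 (0.87) was higher than NTH1 (0.82). TPS3 was also the higher one with scaling between arrays, the deposited ratios and the authors' stated steps.

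The paired arrays were also set apart by dye orientation. On the a arrays, where the sample was in Cy3, low minus standard ran from 0.46 for TPS3 to 1.63 for TSL1, with a median of 0.87. On the b arrays it ran from 1.05 for TPS3 to 2.75 for GPH1, with a median of 2.16. All 10 genes were higher in both orientations. Over 1.7-fold were 7 of the 10 genes on the a arrays, beside 1.39% of all probes, and all 10 on the b arrays, beside 7.59%. The 3 that missed it on the a arrays were TPS3, NTH1 and GLC3. The b difference was the larger one for all 10 genes, and for 3175 of 6388 probes. The latter count pools probes that were higher and lower in low phosphate, while the 10 genes were all higher. The share among higher probes alone was not tested. Larger rises on the b arrays were not confined to the 10 genes, as the 7.59% against 1.39% of all probes over 1.7-fold shows. No test of a against b was possible with 1 array of each condition per orientation.

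The rank among all probes changed less between the orientations than the fold did, but ranks so near the top leave little room to move. The differences of the 10 genes stood at the 95.7th to 99.8th percentile of all probes on the a arrays and at the 96.0th to 99.7th on the b arrays. In units of each array's own SD over all probes, the mean ratio of the 10 genes was -0.10 and 1.59 on standard phosphate a and b, and 3.28 and 3.88 on low phosphate a and b. GSY1 stood 5.40 SD above zero on low phosphate a and 4.25 on low phosphate b, GPH1 6.47 and 6.36, and TSL1 4.50 and 4.41. GLC3 was the least even, with 1.23 on a and 3.78 on b. The wide spread of low phosphate b over all probes moved with the larger differences of the b arrays. Its part in them was not tested beyond the alternative that scales the arrays to a common spread, which gave a median of 0.98 and kept all 10 genes higher.

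**Figure D2:**
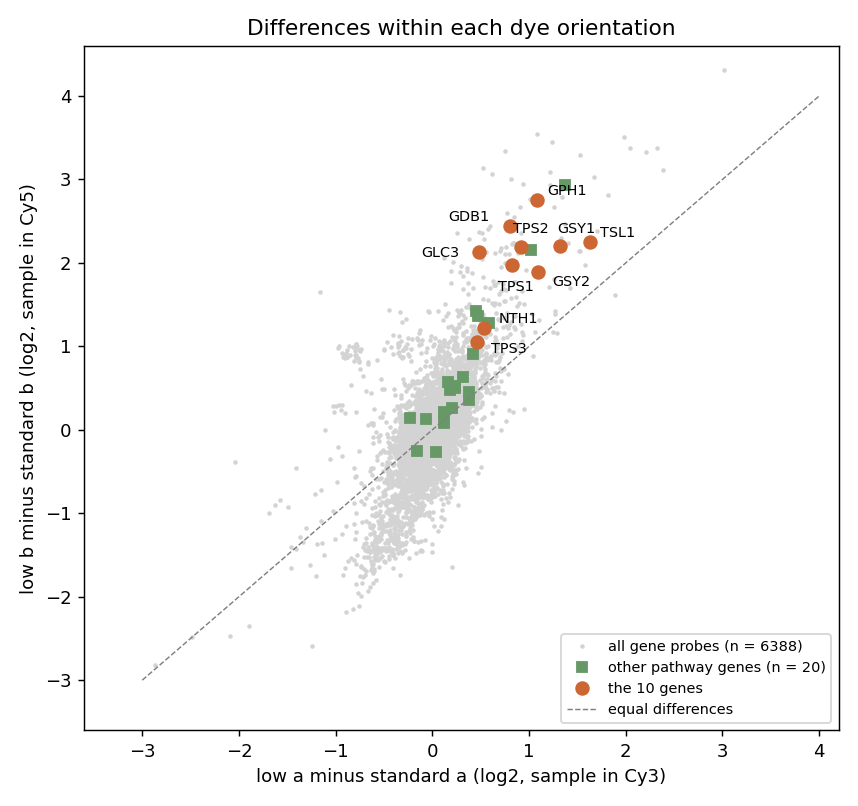
Low minus standard phosphate on the a arrays (horizontal axis, log2) against the b arrays (vertical axis, log2), with orange circles for the 10 genes, green squares for 20 other pathway genes, grey points for all 6388 probes and a dashed line where both are equal. The 10 genes lie at 0.46 to 1.63 on the a arrays and at 1.05 to 2.75 on the b arrays, all above the line.

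Against the common reference, none of the 10 genes was called higher in standard phosphate, where 0.470% of all probes were. GPH1 was the one gene over 1.7-fold there, with a mean of 0.86 (SE 0.53) and an adjusted p (limma) of 0.603, and the median of the 10 genes was 0.084. In low phosphate 8 of the 10 were called higher, against 3.35% of all probes, and their median was 1.67. The exceptions were TPS3, with a mean of 0.64 that is under 1.7-fold, and GLC3, with a mean of 1.30 and an unadjusted limma p of 0.058. None of the 10 passed adjustment (adjusted p 0.148 to 0.197, limma). These comparisons leave out the spread of the reference, which is a single RNA pool, and share the low phosphate arrays with the comparison above.

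The other genes of the pathway were described from a list of 20 with a probe, which holds further trehalases, the makers of UDP-glucose, glycogenins, the phosphatase Glc7 with its glycogen regulators, Pho85 with its glycogen cyclins, the sporulation glucoamylase gene SGA1 and the sugar importer gene MAL11. A higher mean in low phosphate was found for 17 of the 20, with a median of 0.37 (1.29-fold). Both low arrays lay above both standard arrays for 15, beside 26.5% of all probes. They lay below them for 1, beside 1713 of 6388 probes. Over 1.7-fold and higher were 5 of the 20, beside 3.49% of all probes. Of these 5, 2 were called, UGP1 and NTH2, beside 1.60% of all probes called higher. None of the 20 was called lower, beside 1.47% of all probes. UGP1 encodes the pyrophosphorylase that makes UDP-glucose for both sugars. Its log2 ratios were -0.32 and 0.018 on standard phosphate a and b, with 0.70 and 2.17 on low phosphate a and b, and it rose by 1.59 (SE 0.54, 3.01-fold, unadjusted limma p 0.043). NTH2 encodes a trehalase related to NTH1 and rose by 0.93 (SE 0.31, 1.91-fold, unadjusted limma p 0.041). The adjusted p of both was 0.420 (limma).

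The other 3 over 1.7-fold were PGM2, ATH1 and GIP2. PGM2 encodes the main phosphoglucomutase and was named as the pathway gene with the largest difference. The acid trehalase gene ATH1, at 0.94 (SE 0.44), and GIP2, a Glc7 regulator at 0.92 (SE 0.36), were named after their values were seen. PGM2 gave -0.27 and 0.77 on standard phosphate a and b, and 1.10 and 3.70 on low phosphate a and b. Its difference of 2.15 (SE 1.0, 4.45-fold) was the largest of all 30 pathway genes and the least precise of them, with an unadjusted limma p of 0.098. At the other end stood PCL10, a cyclin that directs Pho85 to glycogen synthase. It gave -0.020 and 0.013 on the standard arrays and -0.18 and -0.24 on the low phosphate arrays, a difference of -0.20 (SE 0.088) whose groups did not overlap. The regulators had differences from 0.032 to 0.92 for Glc7 and its partners and from -0.20 to 0.36 for Pho85 and its cyclins.

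**Figure D3:**
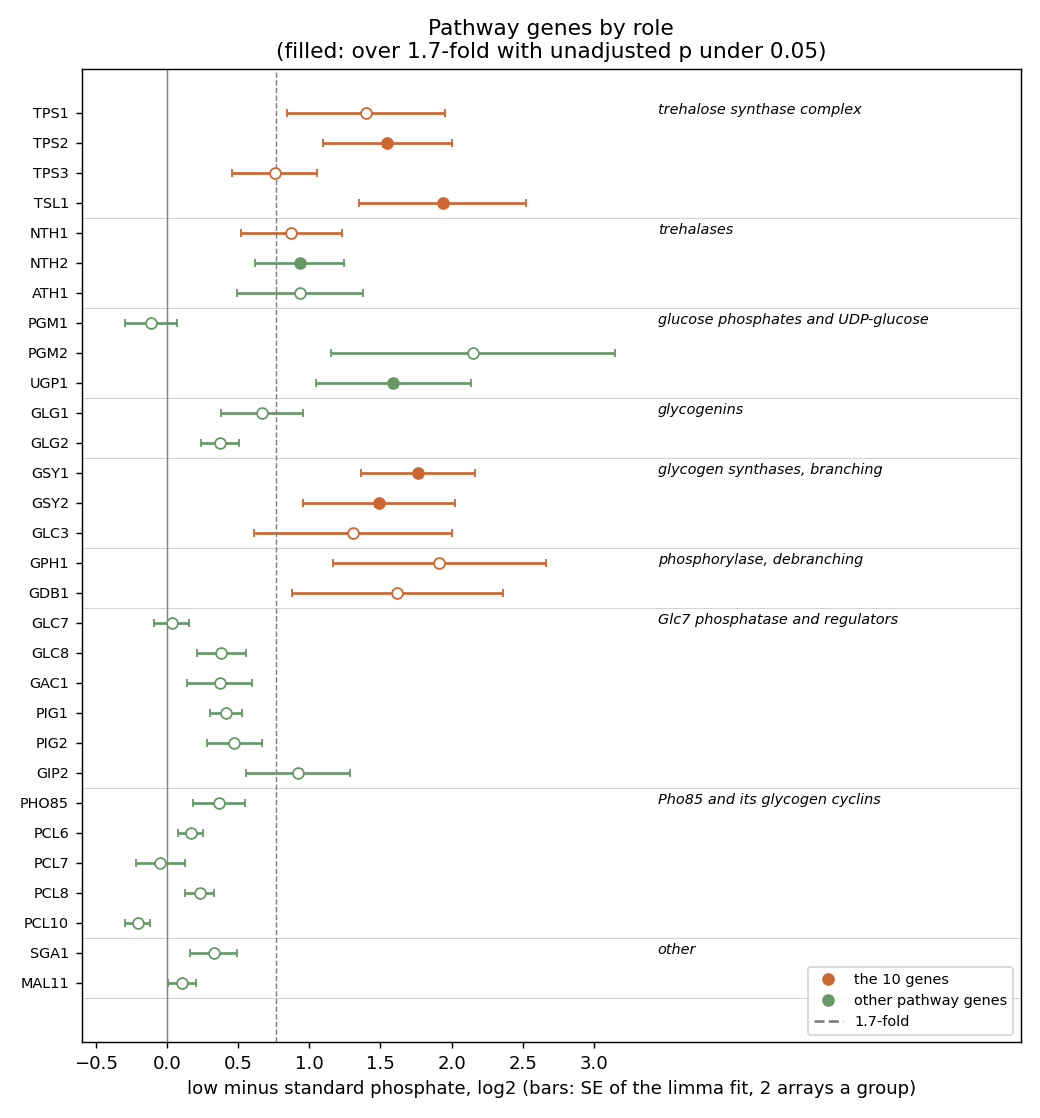
Low minus standard phosphate (horizontal axis, log2) for the 10 genes (orange) and 20 other pathway genes (green), grouped by role, with bars for the SE of the limma fit over 2 arrays a group, filled circles for genes over 1.7-fold with an unadjusted p under 0.05, and a dashed line at 1.7-fold. The filled genes are TPS2, TSL1, GSY1, GSY2, NTH2 and UGP1, and the Glc7 and Pho85 groups lie between -0.20 and 0.47 except GIP2 at 0.92.

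Within pairs of related genes, the ratio of one to the other was compared over the 4 arrays by a two-sided exact permutation test. With 2 arrays a group its p cannot go below 0.333, and over the 5 pairs all p-values adjusted to 0.667. TSL1 minus TPS3 was -0.20 and 0.42 on standard phosphate a and b, and 0.97 and 1.61 on low phosphate a and b. The groups did not overlap and differed by 1.18 (exact p = 0.333), and the ratio was higher in low phosphate in both orientations. GSY1 minus GSY2 was 0.21 and -0.15 on the standard arrays and 0.44 and 0.16 on the low phosphate arrays, which overlap (difference 0.28, exact p = 0.667). NTH1 minus NTH2 also overlapped, with a difference of -0.060 (exact p = 0.667), as did the glycogenin pair GLG1 minus GLG2, with 0.30 (exact p = 0.667). PGM2 minus PGM1 was -0.045 and 1.14 on the standard arrays and 1.30 and 4.34 on the low phosphate arrays, without overlap (difference 2.27, exact p = 0.333). PGM1, the minor isoform, had a difference of -0.11 (SE 0.18).

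The genes for synthesis were also set against those for breakdown on each array, as a description without a test. The mean ratio of the 4 synthase complex genes minus that of NTH1 and NTH2 was -0.17 and -0.027 on standard phosphate a and b, and 0.23 and 0.59 on low phosphate a and b. It was thus above zero on the low phosphate arrays and below it on the standard arrays. For glycogen, GSY1, GSY2 and GLC3 minus GPH1 and GDB1 gave -0.30 and -0.34 on the standard arrays, and -0.27 and -0.86 on the low phosphate arrays. These overlapped, with low phosphate b lowest and low phosphate a highest.

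Outside both lists, the named genes whose 4 ratios lay nearest to the mean profile of the 10 genes were SPI1, PIC2, STF1, YCL042W and GAD1. That profile was -0.027 and 0.31 on standard phosphate a and b, and 0.88 and 2.32 on low phosphate a and b. The root mean square difference from it over the 4 arrays was 0.070 for SPI1, a cell wall protein gene, 0.082 for PIC2, a mitochondrial phosphate and copper carrier gene, 0.10 for STF1, whose protein regulates mitochondrial ATP synthase, 0.12 for YCL042W and 0.14 for GAD1, which encodes glutamate decarboxylase. YCL042W overlaps the glucokinase gene GLK1 in the RefSeq annotation, and the signals of these genes cannot be told apart here. Of the 10 genes themselves, GSY2 (0.12) and TPS2 (0.15) were nearest to the mean profile, and TPS3 (0.75) and GPH1 (1.0) farthest from it.

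The number of called genes moved when single arrays were left out. Each such fit took its residual spread only from the group that kept both arrays, and assumed it for the lone array too. Without standard phosphate a or b this spread was that between the low phosphate arrays, and the median difference was 1.32 or 1.67. Leaving out standard phosphate a or standard phosphate b left none of the 10 genes called, while 0.548% and 0.579% of all probes were called higher. Leaving out low phosphate a left all 10 called, with a median difference of 2.22 and adjusted p-values (limma) of 6.93e-05 to 0.000578. There 7.04% of all probes were called higher, and the lone low phosphate array was assumed to vary like the standard ones. Leaving out low phosphate b left 5 called, TPS2, TSL1, GSY1, GSY2 and GPH1, with a median of 0.73, beside 0.955% of all probes. The direction was higher for each of the 10 genes under all 15 alternatives tried. Leaving out an array could not reverse it, as both low arrays lay above both standard arrays for all 10 genes. The other fits and the filter on dim probes left each difference as it was. Only the other background corrections and normalizations could have changed the direction.

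**Figure D4:**
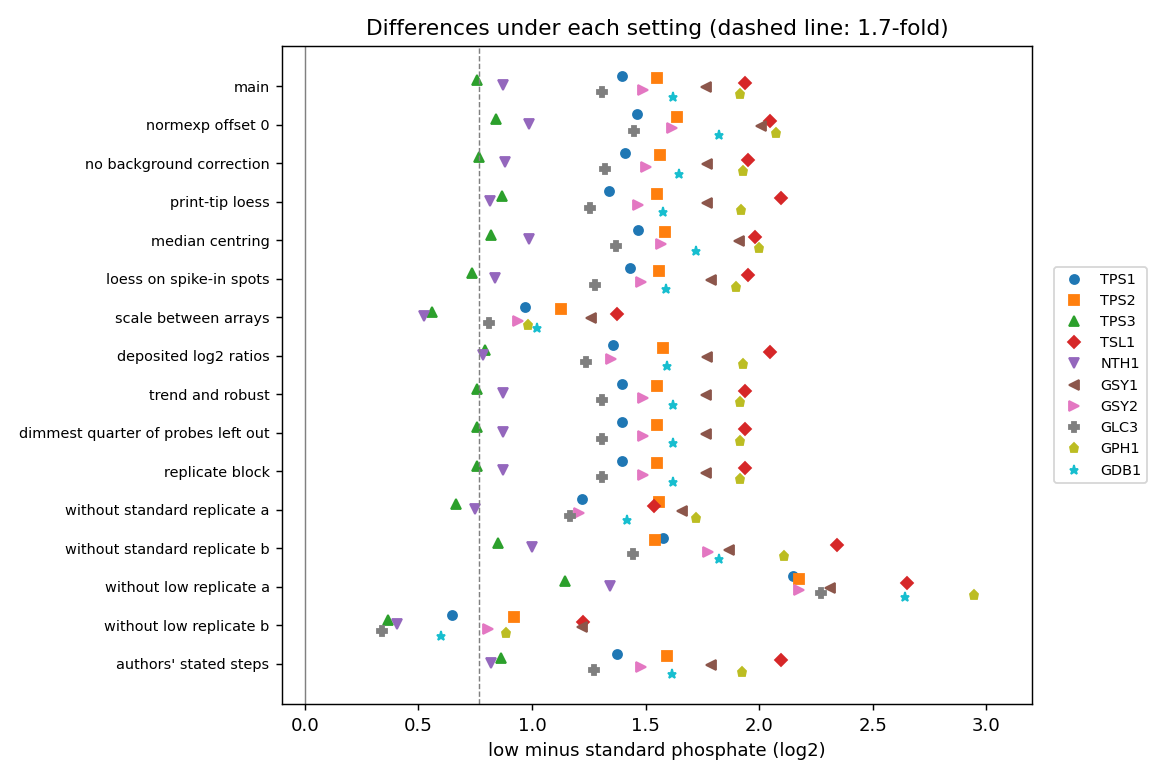
Low minus standard phosphate (horizontal axis, log2) of each of the 10 genes under each way of processing the arrays (vertical axis), with a dashed line at 1.7-fold. All symbols lie above zero, from 0.34 for GLC3 without low phosphate b to 2.95 for GPH1 without low phosphate a.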

How the data were processed

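The deposited scanner files hold mean signal and median background intensity per spot in both channels, not normalized by the authors. A second deposited table gives each spot's log2 ratio, which the authors made by print-tip loess without background subtraction and corrected for gene-specific dye bias. It served as an alternative. A deposited final table holds the authors' own log2 values and p-values per condition (limma 2.12.0) and was not used.

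Background was corrected with normexp (offset 50) and each array normalized by loess fitted to gene spots (limma 3.58.1, R 4.3.3). Ratios were turned to sample over reference and the 2 spots of a probe averaged. Group means were fitted over 4 arrays with lmFit and eBayes, two-sided, with Benjamini-Hochberg adjustment over 6388 probes, on 2 residual and 1.98 prior degrees of freedom. Called means over 1.7-fold with an unadjusted p under 0.05, the thresholds of the study, which does not say whether its P was adjusted. The script was tested on simulated data. Above background means over the background median plus 2 SD in both spots. Precision is limited by the number of arrays.

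Genes were named through the platform annotation, which is old. It gave a symbol to 5326 probes, of which 58 were updated through RefSeq. The pathway list held 21 genes, and IGD1 matched no probe by name. Named genes were the 10 genes, called pathway genes, related genes of the 10, the pathway genes with the highest and lowest difference, and the 5 nearest profiles. Genes, lists and tests were chosen with earlier results of these data known. Promoter motifs were not analysed here. Alternatives were other background corrections, normalizations and fits, a filter on dim probes, and leaving out each array.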

Additional observations from a re-analysis of the deposited data

Results flagged for a closer look

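TPS3 differed in sign against the common reference between the conditions. Both standard phosphate arrays lay below the reference, at -0.21 and -0.023, and both low phosphate arrays above it, at 0.25 and 1.03. The difference of 0.76 (SE 0.30) was tested and had an adjusted p of 0.420 (limma). The TPS3 mean in standard phosphate was -0.12 (SE 0.21, unadjusted limma p 0.609), so a level below the reference was not shown. TPS1, TSL1 and GLC3 also had a mean below the reference in standard phosphate and above it in low phosphate. With 2 arrays a group, it could not be told for a gene which array stood apart from its group. Over all probes, low phosphate b had the widest spread of ratios.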

How the results depend on the processing

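All 10 genes kept a higher mean in low phosphate under all 15 alternatives, with a median difference of 0.73 to 2.22 across them. Without single arrays, and with the other fits or the filter on dim probes, this direction could not change. The count of called genes among the 10 (4) became 7 with median centring, where 2.32% of all probes were called higher. It became 8 with scaling between arrays, beside 1.8% of all probes, and 8 with the replicate block, beside 2.65%. With a trended, robust prior it became 0, beside 1.16%, and the lowest unadjusted p of the 10 genes was 0.052 in limma. With an adjusted p under 0.05 the count was 0 to 10 without single arrays. Over all probes the called count (196, of which 102 higher and 94 lower) became 379 with a normexp offset of 0, 298 with loess on spike-in spots (80 higher, 218 lower), 334 with the replicate block and 64 to 936 without single arrays; with median centring the split was 148 to 88. The 1 probe past adjustment became 0 with an offset of 0, print-tip loess, median centring, spike-in loess, the deposited ratios, the replicate block and the authors' stated steps, 3 with scaling between arrays, and 0 to 2030 without single arrays. Of the other pathway genes 2 were called. This became 1 with print-tip loess, scaling between arrays or the deposited ratios, 0 with spike-in loess, 4 with the replicate block, and 0 to 6 without single arrays, and their median became 0.56 with an offset of 0 and 0.17 to 0.55 without single arrays. Against the reference, the genes of the 10 called in low phosphate numbered 5 to 10 without single arrays, and those called in standard phosphate 1 with scaling between arrays and 0 to 1 without single arrays. The replicate letters of both conditions shared the dye orientation, and the difference a minus b correlated across probes with r = 0.277 between conditions, and with 2 pairs this does not show that arrays of 1 letter were paired in any other way. The authors' stated steps without their gene-specific dye correction were added after seeing the data. They gave 4 called genes, beside 1.5% of all probes called higher. Why the counts moved was not tested. GSY1 was the dimmest of the 10 genes on the standard phosphate arrays, at 1.64 times background in its lowest channel. Its difference was 1.77 without background correction and 2.01 with an offset of 0.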
